A study of Mus musculus with 2 samples.

Results

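The 10 genes described here are the subunits of the transcription factor NF-kB and a set of its regulators: Relb, Nfkb2, Map3k14 and Traf3, counted here as members of the non-canonical arm, and Rel, Rela, Nfkb1, Traf6, Nfkbia and Tnfaip3, counted as members of the canonical arm. They were taken by gene symbol from the 31053 genes that both count matrices list, and all 10 were found in each matrix. Each member stood above the minimum of 10 CPM (UMIs of the gene per 1000000 UMIs) in the fl/fl-labelled library and in the +/fl-labelled library when all cells were summed, so no member was lost to a filter on low values.

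NF-kB proteins act as dimers that wait in the cytoplasm until a receptor frees them. In the canonical arm, dimers of RELA or REL with p50, the product of Nfkb1, are held by the inhibitor encoded by Nfkbia, and TRAF6 carries signals from receptors such as RANK towards the kinases that destroy that inhibitor. The deubiquitinase A20, encoded by Tnfaip3, ends the signal, and both Nfkbia and Tnfaip3 are classical targets of NF-kB itself. In the non-canonical arm, TRAF3 keeps the kinase NIK, encoded by Map3k14, at a low level until RANK, CD40 or the lymphotoxin beta receptor is engaged, after which NIK leads to processing of the Nfkb2 product into p52, the partner of RELB. In the thymus, medullary thymic epithelial cells (mTECs), which display tissue-restricted antigens to developing T cells, depend on RELB and NIK, and RANK and CD40 drive their maturation towards the stage that carries the autoimmune regulator AIRE. Abundance of messenger RNA is what was measured here. Protein level, processing of p100 and entry into the nucleus are not seen by this assay.

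The cells were sorted from mouse thymus as EPCAM-positive and Ly51-negative mTECs and profiled by single-cell RNA sequencing with the 10x Genomics 3' chemistry. The first library is labelled Foxn1-Cre(+) Ikarosfl/fl and the second Foxn1-Cre(+) Ikaros+/fl, so that both carry Cre under Foxn1, a gene of thymic epithelium, and they differ in 1 or both Ikaros (Ikzf1) alleles being floxed. With 1 library of each genotype there is no replicate, so every interval below covers counting error only and no test between genotypes is possible. In the deposited matrix names the genotypes are swapped, with KO for +/fl and Control for fl/fl, so each direction below is between libraries as their labels name them. Age, sex and number of mice are not stated in the labels.

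After filtering, 7669 cells of the fl/fl-labelled library and 4891 cells of the +/fl-labelled library remained, with medians of 8187 and 10731 UMIs per cell. Ikzf1 stood at 37.7 CPM in the fl/fl-labelled library and 64.5 CPM in the +/fl-labelled library. The exons removed are not given, so a 3' count of Ikzf1 does not check the deletion. Xist had 0.902 CPM in the fl/fl-labelled library and 1317 CPM in the +/fl-labelled library, and Ddx3y had 64.5 CPM and 0 UMIs in the same libraries, so genotype and the sex of the mice cannot be told apart. The libraries share 10 barcodes among the kept cells. Cells were grouped by expression without the 10 members, and each of 22 clusters was set against marker lists. Clusters 1 and 14 stayed unnamed, and a name means resemblance to a marker list. The classes most used here held 2555 and 884 cells for the Aire-stage mTEC-like class, 1532 and 872 for the immature mTEC-like class, 230 and 157 for cycling cells, 853 and 1942 for tuft-like cells, 283 and 347 for Ccr7 dendritic-like cells and 118 and 85 for T-lineage-like cells, in the fl/fl-labelled and +/fl-labelled libraries. Classes are called by these names without "like" below.

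The Aire-stage class needs a caution that touches every value given for it. In the fl/fl-labelled library it is made mostly of clusters 5 and 12 (983 and 1499 cells). In the +/fl-labelled library 795 of its 884 cells lie in cluster 3, to which the fl/fl-labelled library gives 73 cells. Cluster 3 is led by 4922502D21Rik, with Gpx6 and Fcrls among its leading genes. The level of a member without that cluster is given beside the class where its interval in the +/fl-labelled library does not overlap that of the whole class, which holds for Relb, Map3k14, Rel, Nfkb1, Nfkbia and Tnfaip3. That library then has 89 cells in the class. Within the tuft class, cluster 7, led by Alox5ap and Rgs13, holds 224 cells of the fl/fl-labelled library and 1205 of the +/fl-labelled library. The leukocyte classes are not free of epithelial RNA. Epcam stood at 265 and 384 CPM in Ccr7 dendritic cells and at 180.2 and 199 CPM in T-lineage cells, against 1030.3 and 902 CPM in immature mTECs, in the fl/fl-labelled and +/fl-labelled libraries. The part of such RNA in the leukocyte values was not tested.

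Relb, the subunit that pairs with p52 in the non-canonical dimer, separated the cell classes more widely than most members. It was highest in Ccr7 dendritic cells, at 412 CPM in the fl/fl-labelled library and 428 CPM in the +/fl-labelled library. Aire-stage mTECs had 240.1 and 209 CPM, cycling cells 209.7 and 185 CPM, immature mTECs 127 and 125 CPM, and T-lineage cells 103 and 80.3 CPM, in the same order of libraries. Tuft cells were lowest, at 45.7 and 40.8 CPM. Without cluster 3 Aire-stage mTECs had 239.5 and 174 CPM. From the highest to the lowest class Relb spanned 9.03-fold in the fl/fl-labelled library over 12 classes with at least 50 cells and 10.5-fold in the +/fl-labelled library over 9 such classes. In the fl/fl-labelled library, microfold cells (256 CPM), enterocyte-hepatocyte cells (247 CPM) and Aire-stage mTECs had overlapping intervals and stand in no order, and so did the 5 classes from immature mTECs down to keratinocyte cells when each is set against its neighbour. The dendritic and tuft classes lay apart from their neighbours in both libraries.

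**Figure D1:**
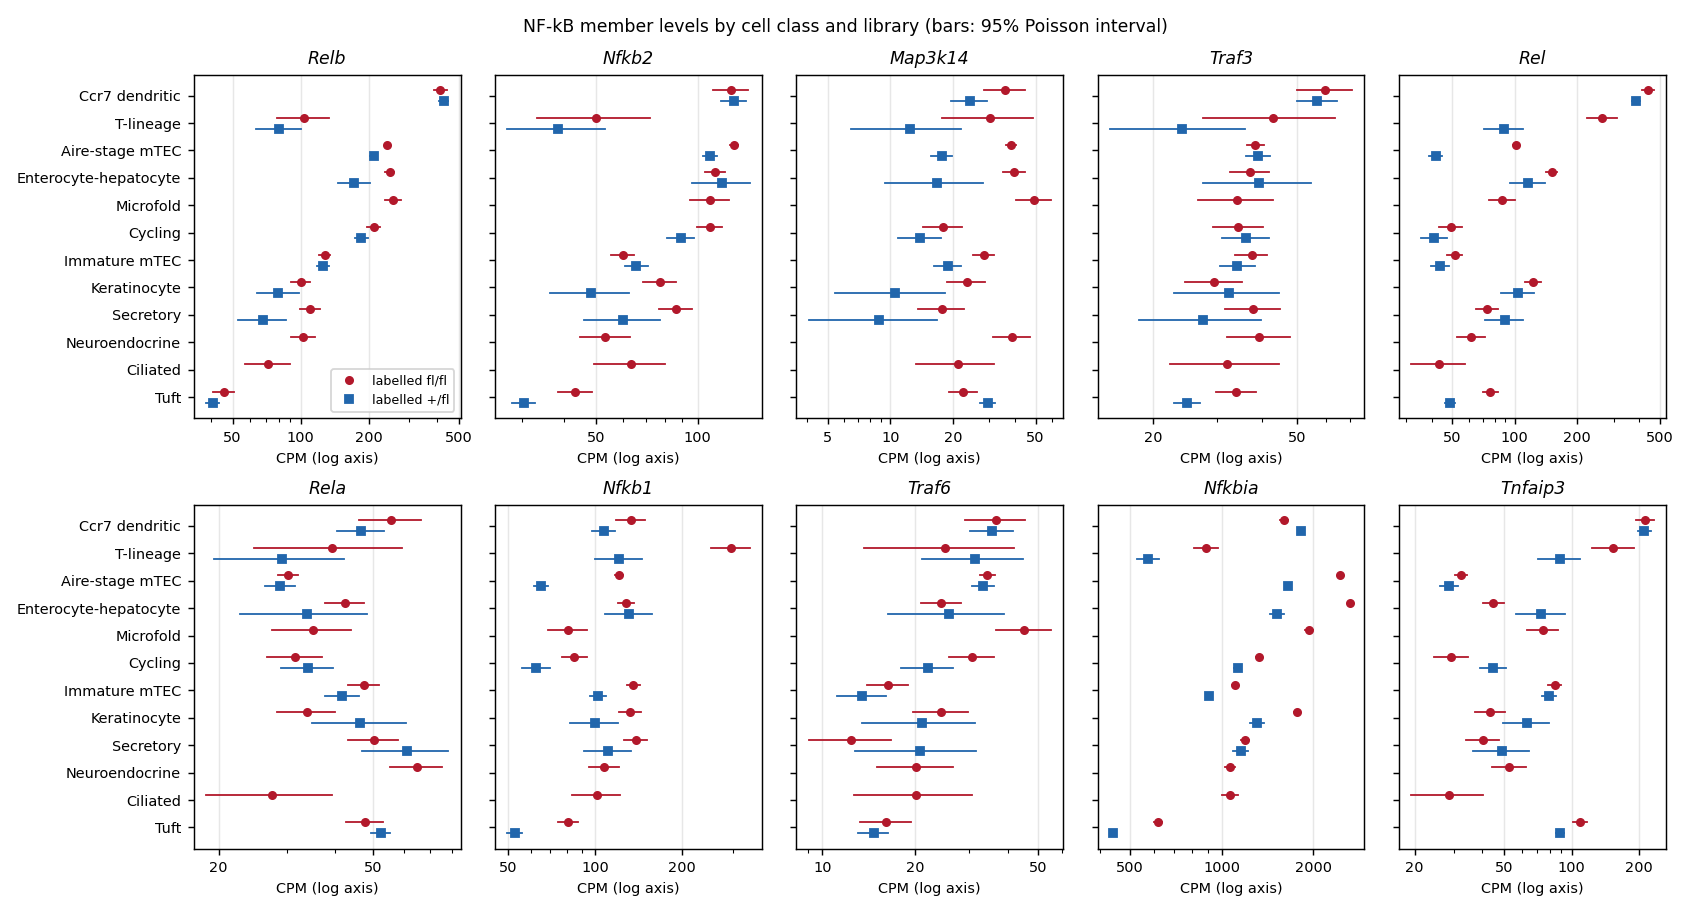
Level of each of the 10 members (CPM, log axis, a separate scale for each gene) in each cell class with at least 50 cells, in the fl/fl-labelled library (red circles) and the +/fl-labelled library (blue squares), with exact 95% Poisson intervals that cover counting error only. Relb lies at 45.7 and 40.8 CPM in tuft cells and at 412 and 428 CPM in Ccr7 dendritic cells, while Rela spans 2.36-fold and 2.12-fold over the classes.

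Nfkb2, which encodes the p100 precursor of p52, had a narrower span of 2.96-fold and 4.21-fold in the fl/fl-labelled and +/fl-labelled libraries. It stood at 128 and 109 CPM in Aire-stage mTECs, 126 and 128 CPM in Ccr7 dendritic cells and 109 and 89.2 CPM in cycling cells. Immature mTECs had 59.8 and 65.8 CPM, and tuft cells had 43.3 and 30.4 CPM. Tuft cells were again the lowest class in both libraries, although their interval overlapped that of T-lineage cells (49.96 and 38.6 CPM) in each. For Map3k14, the gene of NIK, the order depends on cluster 3. Aire-stage mTECs had 38.0 CPM in the fl/fl-labelled library and 17.6 CPM in the +/fl-labelled library, and tuft cells had 22.5 and 29.4 CPM. Without cluster 3 Aire-stage mTECs had 38.4 and 35.8 CPM, which is above tuft cells in both libraries, with overlapping intervals in the +/fl-labelled library. Traf3, the restraint on NIK, stood at 59.8 and 56.7 CPM in Ccr7 dendritic cells, 38.3 and 38.9 CPM in Aire-stage mTECs and 33.9 and 24.8 CPM in tuft cells. In each library every class had an interval that overlapped that of its neighbour in the order. Classes further apart did separate, and the interval of Ccr7 dendritic cells lay above those of Aire-stage mTECs and tuft cells in both libraries.

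Among the canonical subunits, Rel, the subunit best known from lymphoid and myeloid cells, was highest in Ccr7 dendritic cells in both libraries, at 439 and 385 CPM in the fl/fl-labelled and +/fl-labelled libraries. T-lineage cells had 264 and 88.6 CPM and enterocyte-hepatocyte cells 151 and 116 CPM. Aire-stage mTECs stood at 102 CPM in the fl/fl-labelled library and 41.7 CPM in the +/fl-labelled library, immature mTECs at 51.3 and 43.8 CPM, and tuft cells at 76.3 and 48.7 CPM. Without cluster 3 Aire-stage mTECs had 103 and 64.1 CPM of Rel. Rela, the subunit used by most cell types, had a narrow span. Its highest class exceeded its lowest by 2.36-fold in the fl/fl-labelled library and by 2.12-fold in the +/fl-labelled library. Rela was lower in Aire-stage mTECs, at 30.2 and 28.8 CPM, than in tuft cells, at 47.6 and 52.3 CPM. The intervals of these classes did not overlap in either library. Nfkb1 stood at 294 and 121 CPM in T-lineage cells, 136 and 103 CPM in immature mTECs, 133 and 107 CPM in Ccr7 dendritic cells, 121 and 65.2 CPM in Aire-stage mTECs (122 and 91.4 CPM without cluster 3) and 80.9 and 52.8 CPM in tuft cells. Traf6, the adaptor of RANK and of Toll-like and interleukin 1 receptors, had 34.3 and 33.2 CPM in Aire-stage mTECs, 36.6 and 35.4 CPM in Ccr7 dendritic cells, 16.3 and 13.4 CPM in immature mTECs and 16.1 and 14.7 CPM in tuft cells.

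The 2 feedback inhibitors did not share an order. Nfkbia stood at 2436 and 1651 CPM in Aire-stage mTECs, 1602 and 1823 CPM in Ccr7 dendritic cells, 1106 and 913 CPM in immature mTECs and 621 and 439.8 CPM in tuft cells, in the fl/fl-labelled and +/fl-labelled libraries. Enterocyte-hepatocyte cells had 2642 and 1521 CPM and were the highest class of the fl/fl-labelled library. Tnfaip3 stood at 32.1 and 28.5 CPM in Aire-stage mTECs, 212 and 211 CPM in Ccr7 dendritic cells, 84.3 and 79.4 CPM in immature mTECs and 109 and 88.9 CPM in tuft cells. Aire-stage mTECs were thus above tuft cells in Nfkbia and below them in Tnfaip3, in both libraries. Without cluster 3 this order holds, with 2448 and 2020.3 CPM of Nfkbia and 32.4 and 46.2 CPM of Tnfaip3 in Aire-stage mTECs.

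Set against all other kept cells of the same library, tuft cells were at least 1.5-fold lower in both libraries for 5 of 10 members (Relb, Nfkb2, Nfkb1, Traf6 and Nfkbia), beside 21.9% of the 10708 genes counted. None was at least 1.5-fold higher in both, beside 19.4% of genes. The log2 ratio of tuft cells over other cells was -2.14 for Relb in the fl/fl-labelled library (interval -2.33 to -2.003) and -2.16 in the +/fl-labelled library (interval -2.28 to -2.08). For Nfkb2 it was -1.27 and -1.51, for Nfkbia -1.66 and -1.60, for Traf6 -0.78 and -0.72, and for Nfkb1 -0.60 and -0.65. Tnfaip3 went the other way, at 1.11 (interval 1.01 to 1.24) and 0.46 (interval 0.38 to 0.55), as did Rela at 0.34 and 0.48. Map3k14 had opposite signs, at -0.56 in the fl/fl-labelled library and 0.70 in the +/fl-labelled library. With the mean of per-cell CPM or with 10 CPM added to both sides, the count of 5 is 3.

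Aire-stage mTECs over other kept cells were at least 1.5-fold higher in both libraries for 4 of 10 members, beside 11.6% of the 10699 genes counted. The 4 were Relb (log2 ratios of 0.64 and 0.88 in the fl/fl-labelled and +/fl-labelled libraries), Nfkb2 (0.69 and 0.95), Traf6 (0.61 and 0.89) and Nfkbia (0.78 and 0.99). Tnfaip3 lay lower, at -1.14 and -1.59, as did Rela, at -0.53 and -0.68. With cluster 3 left out of the class and of the other cells, 3 of 10 members were at least 1.5-fold higher in both libraries, beside 11.0% of genes, namely Relb (0.63 and 0.62), Nfkb2 (0.69 and 0.87) and Nfkbia (0.79 and 1.28), and Traf6 stood at 0.61 and 0.57. Tnfaip3 was then -1.13 and -0.91. With cluster 3 counted among the other cells 1 member of 10, Nfkbia (0.77 and 0.97), was at least 1.5-fold higher, near the 8.97% of genes. Relb then stood at 0.61 and 0.34.

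Ccr7 dendritic cells were higher than the other kept cells in both libraries for 9 of 10 members, beside 17.8% of the 10358 genes counted, and at least 1.5-fold higher for 4, beside 7.50% of genes. The 4 were Rel (log2 ratios of 2.23 and 2.99), Tnfaip3 (2.04 and 1.74), Relb (1.16 and 1.85) and Traf3 (0.68 and 0.81). The member outside the 9 was Nfkbia, at -0.21 in the fl/fl-labelled library and 0.88 in the +/fl-labelled library. In T-lineage cells over the other kept cells, 3 of 10 members were at least 1.5-fold lower in both libraries, near the 29.1% of the 10991 genes counted. The 3 were Relb (-0.88 and -0.79), Nfkb2 (-0.99 and -0.84) and Nfkbia (-1.06 and -0.87). Nfkb1 was the single member of 10 at least 1.5-fold higher there, at 1.31 and 0.72, a count also near the 14.4% of genes. The pooled leukocyte clusters held 3 members at least 1.5-fold higher, beside 8.22% of genes, and 6 when edgeR's TMM factors replaced library totals, a scaling that adds 0.34 and 0.36 to each log2 ratio of that comparison.

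Immature mTECs were at least 1.5-fold lower than other kept cells in both libraries for Rel (log2 ratios of -1.08 and -0.73) and Traf6 (-0.79 and -0.72). That is 2 of 10 members, near the 23.3% of genes. Nfkb1 was higher in both, at 0.22 and 0.57, although the second value is -0.0094 against the median of the other classes. With TMM factors, which add 0.25 and 0.20 to each ratio of this comparison, no member passed 1.5-fold in both libraries.

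Relb and Rela, a subunit of each arm, can be set side by side as the number of Relb UMIs for each Rela UMI. This number is compared between classes and is not a ratio of transcripts, since capture differs between genes. Nor does it measure the activity of either arm. The number was 7.95 and 7.27 in Aire-stage mTECs, 7.42 and 9.20 in Ccr7 dendritic cells, 6.66 and 5.46 in cycling cells and 2.69 and 3.01 in immature mTECs, in the fl/fl-labelled and +/fl-labelled libraries. It was 0.958 and 0.780 in tuft cells. The number of Nfkb2 UMIs for each Nfkb1 UMI was 1.06 and 1.67 in Aire-stage mTECs, 0.440 and 0.640 in immature mTECs, 0.535 and 0.576 in tuft cells and 0.170 and 0.319 in T-lineage cells. Aire-stage mTECs without cluster 3 had 7.94 and 5.44 Relb UMIs for each Rela UMI, and 1.05 and 1.12 Nfkb2 UMIs for each Nfkb1 UMI. Both arms, summed over their members, were higher in Aire-stage mTECs than in tuft cells, the canonical arm through Nfkbia. The non-canonical members summed to 445 and 375 CPM in Aire-stage mTECs and to 145 and 125 CPM in tuft cells. The canonical members, Nfkbia among them, summed to 2755 and 1849 CPM and to 951 and 697 CPM in the same classes. Nfkbia alone gave 2436 and 1651 CPM, and 621 and 439.8 CPM, of these sums. Of the other canonical members, Rela and Tnfaip3 were lower in Aire-stage mTECs than in tuft cells in both libraries. Nfkb1 and Traf6 were higher there in both, and Rel was higher in the fl/fl-labelled library only.

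Shares of cells with a Relb UMI gave the same order of dendritic, Aire-stage and tuft cells at equal depth. Cells were thinned to 2000 UMIs, and 797 shallower cells of the fl/fl-labelled library and 324 of the +/fl-labelled library were not used. A Relb UMI was found in 54.1% (exact Clopper-Pearson interval 47.3 to 60.7%) of 222 thinned Ccr7 dendritic cells of the fl/fl-labelled library and in 56.0% (50.1 to 61.8%) of 291 of the +/fl-labelled library. In Aire-stage mTECs the shares were 36.3% of 2248 and 32.3% of 777 cells, and in tuft cells 10.4% (8.37 to 12.8%) of 787 and 7.74% (6.57 to 9.05%) of 1873 cells. The unthinned shares were 77.0% and 85.3% in Ccr7 dendritic cells, 76.4% and 76.2% in Aire-stage mTECs and 27.9% and 28.7% in tuft cells. No class is known to lack these genes, so free RNA could not be measured through them. Aire, as a gene of 1 stage, stood at 575 and 370 CPM in Aire-stage mTECs and at 64.9 and 45.8 CPM in immature mTECs.

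Promoter sequence was available for 8 of the 10 members in a RefSeq table of GRCm38.p6, as 11 windows of the 250 bases before an annotated start. Relb and Nfkb1 have no entry there. The degenerate 10-base kB consensus was searched on both strands and was present in 7 of the 11 windows, which belong to 5 of the 8 genes, beside 3.90% of 32851 promoters of the same length. The looser motif of GGG, any 5 bases and CC, which contains every match of the consensus, was present in all 8, beside 45.8% of promoters. The first windows of those 5 genes are shown 5′ to 3′ because they hold the consensus close to the start. They end on the last base before the start, and capitals mark the consensus, with overlapping matches joined.
Nfkb2, chr19:46304487-46304736, plus strand: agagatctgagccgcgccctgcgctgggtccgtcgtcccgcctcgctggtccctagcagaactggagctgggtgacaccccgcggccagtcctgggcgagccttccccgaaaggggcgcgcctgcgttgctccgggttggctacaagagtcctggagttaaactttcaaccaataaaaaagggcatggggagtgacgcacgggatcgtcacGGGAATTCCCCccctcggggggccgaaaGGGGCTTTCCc
Nfkbia, chr12:55492648-55492897, minus strand: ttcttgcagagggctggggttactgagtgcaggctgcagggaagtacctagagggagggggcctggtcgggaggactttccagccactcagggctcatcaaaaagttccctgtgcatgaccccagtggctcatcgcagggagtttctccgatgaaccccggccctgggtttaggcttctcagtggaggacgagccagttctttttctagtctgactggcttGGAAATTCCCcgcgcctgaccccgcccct
Tnfaip3, chr10:19015411-19015660, minus strand: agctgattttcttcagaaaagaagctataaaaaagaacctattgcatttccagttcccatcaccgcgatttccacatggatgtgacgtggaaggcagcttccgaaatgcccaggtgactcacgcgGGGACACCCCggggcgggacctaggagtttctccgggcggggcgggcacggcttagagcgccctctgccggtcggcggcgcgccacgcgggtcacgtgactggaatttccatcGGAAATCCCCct
Rel, chr11:23770970-23771219, minus strand: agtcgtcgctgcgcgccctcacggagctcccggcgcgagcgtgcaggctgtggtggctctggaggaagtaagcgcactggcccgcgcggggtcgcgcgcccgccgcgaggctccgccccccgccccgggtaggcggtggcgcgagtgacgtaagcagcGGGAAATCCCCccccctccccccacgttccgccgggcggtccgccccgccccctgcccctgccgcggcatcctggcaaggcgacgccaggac
Traf3, chr12:111166120-111166369, plus strand: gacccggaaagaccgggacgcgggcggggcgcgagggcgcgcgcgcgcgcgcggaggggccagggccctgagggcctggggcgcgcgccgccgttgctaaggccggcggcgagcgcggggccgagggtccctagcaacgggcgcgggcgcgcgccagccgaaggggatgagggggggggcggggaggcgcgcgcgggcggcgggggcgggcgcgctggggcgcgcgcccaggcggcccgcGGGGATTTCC
In Nfkb2, the gene of p100, consensus matches begin 39, 38 and 11 bases before the start. The single match in Nfkbia begins 29 bases before it, those in Tnfaip3 125 and 12 bases, those in Rel 92 and 91 bases, and the match in Traf3 10 bases. Map3k14, Rela and Traf6 had no consensus match in their windows, and of the further windows of Nfkb2 and Tnfaip3, both of Nfkb2 held 1 match each. The genes with a match include both Nfkbia and Tnfaip3, whose class orders differ. They also include Traf3, which spanned 2.03-fold and 2.37-fold over the classes of the fl/fl-labelled and +/fl-labelled libraries. A match is a string of letters, and its relation to binding or to class levels was not tested here.

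Over the 21 points given by each class of each library with at least 50 cells, Relb and Nfkb2 had the highest correlation of any pair of members (Pearson r = 0.90 of log2 CPM). Nfkb2 and Nfkbia had r = 0.87, Relb and Nfkbia 0.78, and Rel and Tnfaip3 0.68. Nfkbia and Tnfaip3 had r = -0.26 and Rela and Traf6 r = -0.42. The points share libraries, depth and neighbouring classes, so these values only describe the classes. Among 7116 genes at 50 CPM or more in at least 1 point, those most like Relb were Glipr2 (r = 0.93), Poglut1 (0.93) and Il4i1 (0.92). Those most like Nfkb2 were the antigen presentation genes H2-Aa (0.92) and Cd74 (0.91) with Uap1 (0.91), and those most like Nfkbia were Npc2 (0.92), H2-Aa (0.90) and H2-Ab1 (0.89). For Rel they were Jak2 (0.87), Myo1g (0.86) and Arhgap30 (0.85), and for Tnfaip3 Cblb (0.86), Uvrag (0.85) and Arhgap31 (0.84). For Map3k14 they were Pdcd1lg2 (0.75), Loxl3 (0.74) and Plekha4 (0.73), for Traf3 Tbc1d8 (0.83), Cacnb3 (0.78) and Psme1 (0.78), and for Rela Clec2d (0.82), Tmbim1 (0.79) and Ezh1 (0.79). For Nfkb1 they were Pag1, Rab22a and Trim30a (0.76 each), and for Traf6 Rassf2 (0.88), Tango2 (0.83) and Bmp2k (0.83).

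**Figure D2:**
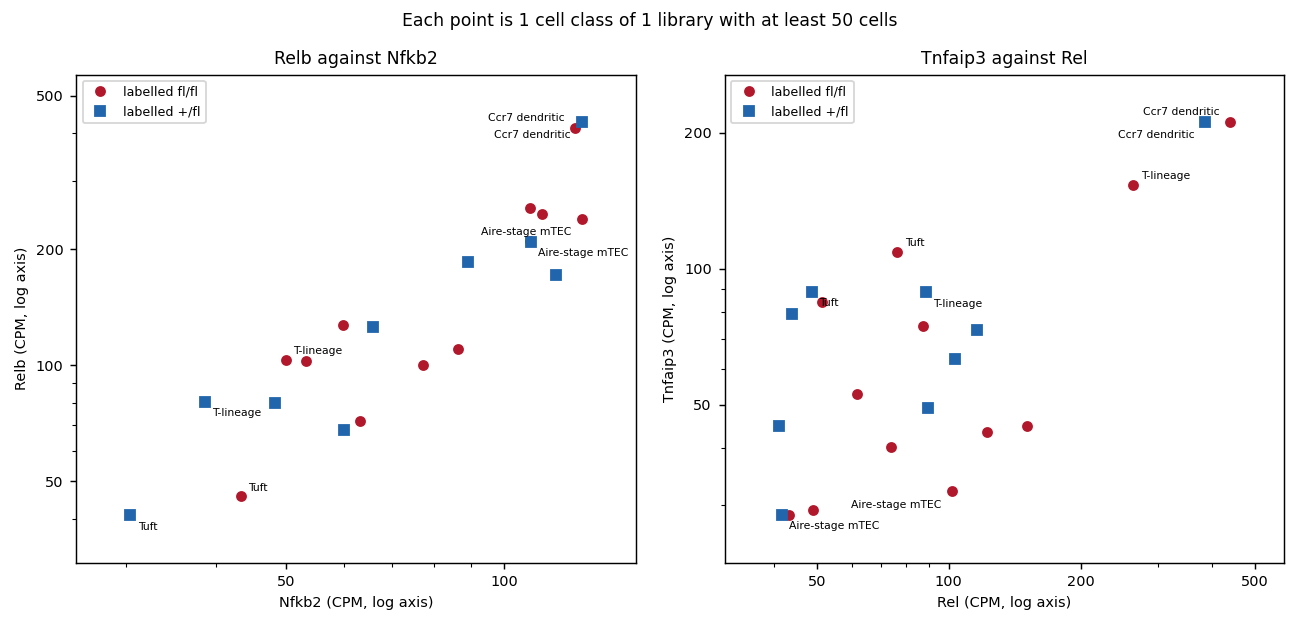
Level of Relb against Nfkb2 (left) and of Tnfaip3 against Rel (right), in CPM on log axes, with 1 point for each cell class of each library with at least 50 cells (21 points, red circles for the fl/fl-labelled library and blue squares for the +/fl-labelled library). Relb rises with Nfkb2 over the points (r = 0.90), with Ccr7 dendritic cells above the rest. Those cells have 412 and 428 CPM of Relb at 126 and 128 CPM of Nfkb2, in the fl/fl-labelled and +/fl-labelled libraries. Aire-stage mTECs have 240 and 209 CPM of Relb at 128 and 109 CPM of Nfkb2. The points of Tnfaip3 against Rel scatter more widely (r = 0.68), with Aire-stage mTECs at 32.1 and 28.5 CPM of Tnfaip3 and 102 and 41.7 CPM of Rel.

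Between the genotypes, with all kept cells summed, 8 of 10 members were higher in the fl/fl-labelled library than in the +/fl-labelled library, beside 43.6% of the 9931 genes counted, and 2 were at least 1.5-fold higher, beside 12.6% of genes. Their median log2 ratio was 0.49, beside -0.05 for all genes counted. Nfkbia stood at 1849.6 CPM in the fl/fl-labelled library and 1043 CPM in the +/fl-labelled library (log2 ratio 0.83, interval 0.81 to 0.84), and Nfkb1 at 119 and 73.5 CPM (0.69, interval 0.65 to 0.75). Relb stood at 190.4 and 138 CPM (0.46), Nfkb2 at 100.02 and 69.6 CPM (0.52), Rel at 102 and 69.5 CPM (0.55) and Map3k14 at 32.7 and 21.5 CPM (0.58). Tnfaip3 was lower, at 55.1 and 72.3 CPM (-0.39, interval -0.45 to -0.33), and Rela stood at 38.2 and 42.1 CPM (-0.14).

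These sums mix the members' class levels with the make-up of the libraries. Tuft cells, low in Relb, Nfkb2 and Nfkbia and high in Tnfaip3, were 11.1% of the kept cells of the fl/fl-labelled library and 39.7% of those of the +/fl-labelled library, and Aire-stage mTECs were 33.3% and 18.1%. With each of the 9 compared classes given the same weight, the log2 ratio of Relb was 0.20, of Nfkb2 0.20, of Nfkbia 0.37, of Rel 0.47, of Nfkb1 0.54, of Map3k14 0.70 and of Tnfaip3 0.042. All 10 members were then above 0, beside 47.1% of genes, with Rela at 0.015 and Traf6 at 0.016. The sign of Tnfaip3 and of Rela thus differed between the 2 ways of summing. The 9 classes include T-lineage cells, a class of 118 and 85 cells. These had 153 and 88.6 CPM of Tnfaip3, 39.3 and 29.2 CPM of Rela and 264 and 88.6 CPM of Rel in the fl/fl-labelled and +/fl-labelled libraries. Their part in the equal-weight values was not tested. Class by class, Traf3, Rela and Tnfaip3 were above 0 in 5 of 9 each, and Nfkb2 and Traf6 in 6 each.

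**Figure D3:**
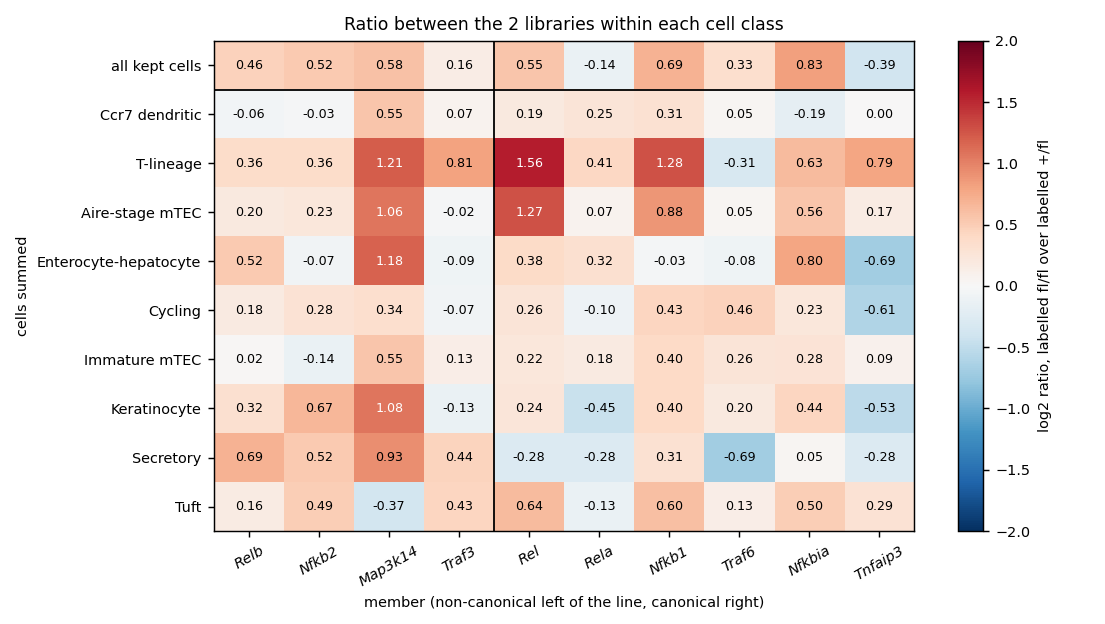
Log2 ratio of the fl/fl-labelled library over the +/fl-labelled library for each member (columns, non-canonical left of the vertical line) in all kept cells (top row) and in each of the 9 classes that both libraries fill with 50 cells or more (rows), with 1 CPM added to both sides. Red marks a higher level in the fl/fl-labelled library. The columns of Nfkb1, Rel and Map3k14 are above 0 in 8 of 9 classes each, and that of Tnfaip3 in 5.

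Within classes, 5 members (Relb, Map3k14, Rel, Nfkb1 and Nfkbia) were higher in the fl/fl-labelled library in 8 of 9 classes, beside 9.36% of the 6242 genes counted in every class. For Nfkb1 the median log2 ratio over the classes was 0.40, the range -0.034 to 1.28, and the interval lay above 0 in 8 classes, the exception being enterocyte-hepatocyte cells. For Rel the median was 0.26 and the range -0.28 to 1.56, with secretory cells as the exception, and for Nfkbia 0.44 and -0.19 to 0.80, with Ccr7 dendritic cells as the exception. Map3k14 had a median of 0.93 and a range of -0.37 to 1.21, with tuft cells as the exception. That median is the ratio of secretory cells, at 17.8 and 8.86 CPM, with an interval of 4.05 to 16.8 CPM for the second. The +/fl-labelled library was also low in keratinocyte (10.5 CPM), T-lineage (12.5 CPM) and enterocyte-hepatocyte cells (16.9 CPM). Aire-stage mTECs without cluster 3 had 38.4 and 35.8 CPM of Map3k14. Relb had a median of 0.20 and a range of -0.055 to 0.69, with Ccr7 dendritic cells as the exception. With TMM factors Relb in immature mTECs, at 0.021, was -0.00057. Traf3 and Rela were higher in 5 of 9 classes each.

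In Aire-stage mTECs 9 of 10 members were higher in the fl/fl-labelled library, beside 46.7% of the 9631 genes counted, and 3 were at least 1.5-fold higher, beside 15.2% of genes. Those 3 were Rel at 102 and 41.7 CPM (log2 ratio 1.27, interval 1.17 to 1.41), Map3k14 at 38.0 and 17.6 CPM (1.06, interval 0.93 to 1.29) and Nfkb1 at 121 and 65.2 CPM (0.88, interval 0.80 to 0.99). Rela at 0.066 and Traf6 at 0.046 turn to -0.038 and -0.058 with TMM factors, and Traf3 at -0.022 turns to 0.16 with the mean of per-cell CPM. The class is made of different clusters in the libraries. Without cluster 3, which leaves 2482 cells of the fl/fl-labelled library and 89 of the +/fl-labelled library, 7 of 10 members were higher, beside 41.1% of genes. Of the 10, 1 was at least 1.5-fold higher, near the 12.6% of genes. Rel was then 103 and 64.1 CPM (0.67), Nfkb1 122 and 91.4 CPM (0.41) and Map3k14 38.4 and 35.8 CPM (0.10). Tnfaip3 turned in direction, with a log2 ratio of 0.17 in the whole class and of -0.50 (interval -0.92 to -0.067) without cluster 3, as did Rela, at -0.084 without it. Inside single clusters, Rel stood at 64.8 and 40.2 CPM in cluster 3 (0.67) and at 108 and 51.1 CPM in cluster 5 (1.07, interval 0.61 to 1.61). Relb stood at 260.0 and 212 CPM in cluster 3 (0.29) and 209.9 and 185 CPM in cluster 5 (0.18). A list of 14 genes of the dissociation response, added with the data in view, was higher in the fl/fl-labelled library for 14 of 14 genes in the whole class (summed level 7977 and 6357 CPM) and for 3 of 14 without cluster 3 (8006 and 8749 CPM). Its part in these ratios was not tested.

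In tuft cells 8 of 10 members were higher in the fl/fl-labelled library, beside 52.6% of the 9130 genes counted, and 2 were at least 1.5-fold higher, beside 7.37% of genes. Rel stood at 76.3 and 48.7 CPM (log2 ratio 0.64, interval 0.50 to 0.80) and Nfkb1 at 80.9 and 52.8 CPM (0.60, interval 0.47 to 0.76). Nfkb2 (0.49) and Nfkbia (0.50) were also higher, while Relb at 0.16 had an interval that held 0. Traf6 at 0.13 turns to -0.015 with the mean of per-cell CPM. Of the dissociation genes 10 of 14 were higher in the tuft cells of the fl/fl-labelled library. The tuft clusters differed among themselves. Tnfaip3 stood at 189 and 102 CPM in cluster 7, led by Alox5ap, at 117 and 85.4 CPM in cluster 9, led by Gnat3 and Rgs13, and at 70.3 and 70.1 CPM in cluster 4, led by Myl1 and Gnat3. Map3k14 stood at 37.6 and 36.0 CPM in cluster 7, 18.7 and 27.1 CPM in cluster 9 and 20.0 and 19.9 CPM in cluster 4. Cluster 7, the highest of the 3 in Map3k14 in both libraries, holds 224 of the 853 tuft cells of the fl/fl-labelled library and 1205 of the 1942 of the +/fl-labelled library, so the class values of 22.5 and 29.4 CPM also carry this make-up. Relb stayed between 31.5 and 51.8 CPM in all 3 clusters of both libraries. Rel was higher in the fl/fl-labelled library in cluster 7 (113 and 52.6 CPM, 1.09) and cluster 9 (81.1 and 37.3 CPM, 1.10), and stood at 57.5 and 47.3 CPM in cluster 4 (0.28, interval 0.01 to 0.55).

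**Figure D4:**
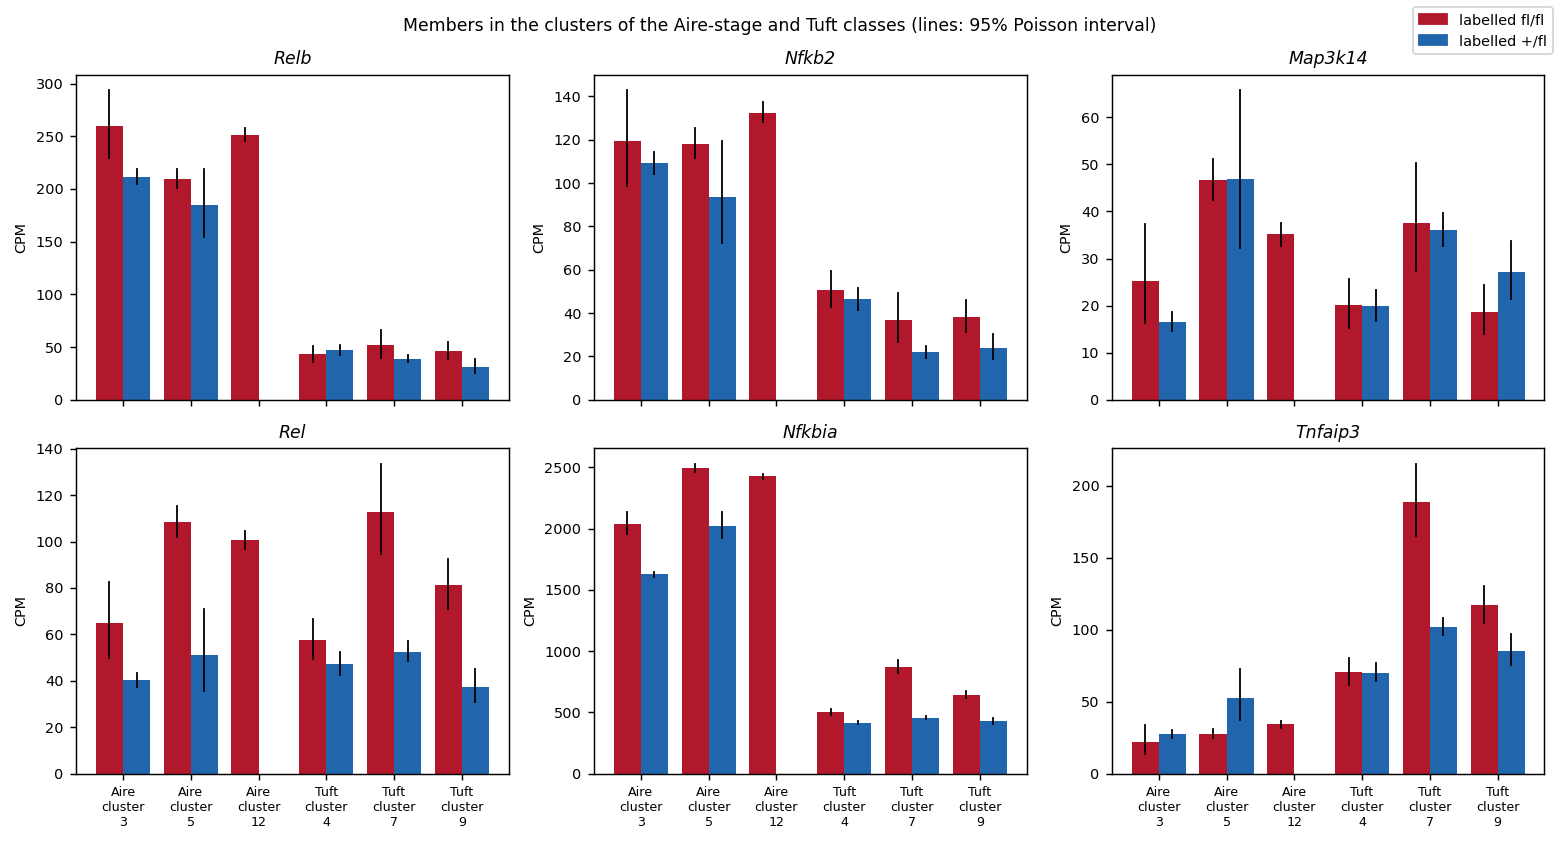
Level (CPM, bars from 0) of 6 members in the clusters of the Aire-stage class (3, 5 and 12) and the tuft class (4, 7 and 9), in the fl/fl-labelled library (red) and the +/fl-labelled library (blue), with exact 95% Poisson intervals that cover counting error only. Bars with under 50 cells are left out, which removes cluster 12 of the +/fl-labelled library. Tnfaip3 reaches 189 and 102 CPM in tuft cluster 7, while Relb stays between 31.5 and 51.8 CPM in every tuft cluster.

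In immature mTECs 9 of 10 members were higher in the fl/fl-labelled library, beside 52.6% of the 8729 genes counted, and none passed 1.5-fold, beside 2.90% of genes. The log2 ratios were 0.40 for Nfkb1 (136 and 103 CPM), 0.28 for Nfkbia, 0.55 for Map3k14 (28.2 and 18.9 CPM, interval 0.30 to 0.86) and 0.021 for Relb, whose sign turns with TMM factors, and Nfkb2 was the member below 0 at -0.14, with an interval that held 0. Of the dissociation genes 14 of 14 were higher in this class too, with summed levels of 26766 and 21249.8 CPM. In cycling cells 7 of 10 members were higher, beside 46.6% of genes. Of the 10, 1 was at least 1.5-fold lower, near the 6.85% of genes, namely Tnfaip3 at 29.1 and 44.9 CPM (-0.61, interval -0.94 to -0.31).

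In Ccr7 dendritic cells the libraries were close for most members. Relb stood at 412 and 428 CPM (log2 ratio -0.055), Nfkb2 at 126 and 128 CPM (-0.029) and Tnfaip3 at 212 and 211 CPM (0.0032), each with an interval that held 0. In this class 7 of 10 members were higher in the fl/fl-labelled library, beside 53.4% of the 8189 genes counted, and none passed 1.5-fold, beside 7.52% of genes. Nfkbia was lower, at 1602 and 1823 CPM (-0.19, interval -0.24 to -0.13). The summed level of the epithelial marker list was 1101 CPM in the fl/fl-labelled library and 1596 CPM in the +/fl-labelled library in this class, and that of the B-lineage list 851 and 266 CPM. Their part in these ratios was not tested. In T-lineage cells 9 of 10 members were higher, beside 48.3% of the 9011 genes counted, and 6 were at least 1.5-fold higher, beside 17.2% of genes. Rel stood at 264 and 88.6 CPM (1.56, interval 1.18 to 1.98), Nfkb1 at 294 and 121 CPM (1.28, interval 0.93 to 1.64) and Tnfaip3 at 153 and 88.6 CPM (0.79, interval 0.34 to 1.24). Among genes of T-cell stages in this class, Ccr7 stood at 403 and 145 CPM, Rag1 at 121 and 244 CPM and Cd8b1 at 364 and 496 CPM, and the part of these differences was not tested. In all leukocytes together 7 of 10 members were higher, beside 52.9% of genes, but 5 with TMM factors and 3 with the mean of per-cell CPM, so no direction is given for them as a set.

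The receptors that feed these pathways followed the classes in part. They were not kept out of the clustering. Cd40 is also a marker of the Aire-stage class, so its level there is partly set by the naming. The tuft comparison below counts Cd40 too, and the other cells in it include that class. Tnfrsf11a, the gene of RANK, stood at 143 and 148 CPM in Aire-stage mTECs, 65.5 and 61.8 CPM in immature mTECs and 34.6 and 29.2 CPM in tuft cells, in the fl/fl-labelled and +/fl-labelled libraries. Cd40 stood at 189.5 and 157 CPM in Aire-stage mTECs, 30.8 and 33.0 CPM in immature mTECs and 13.3 and 6.36 CPM in tuft cells. Ltbr, the gene of the lymphotoxin beta receptor, was lowest in Aire-stage mTECs among these, with 12.4 and 13.3 CPM there, 31.9 and 37.2 CPM in immature mTECs and 30.5 and 33.5 CPM in tuft cells. Of the 8 receptors counted in tuft cells over other cells, 5 were at least 1.5-fold lower in both libraries, beside 21.9% of all genes counted, led by Cd40 (log2 ratios of -3.13 and -3.81) and Tnfrsf9 (-2.77 and -3.14), and Tlr3 was higher (2.55 and 1.30).

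Of 14 reported NF-kB target genes counted in tuft cells over other cells, 13 were at least 1.5-fold lower in both libraries, beside 21.9% of all genes counted, with medians of -2.58 and -2.98, beside 0.10 and 0.12 over all genes counted. The lowest were the chemokine gene Ccl20 (-4.71 and -4.61), the survival gene Bcl2a1d (-4.27 and -4.64) and Cxcl13 (-4.21 and -4.64), and Sod2 was the exception on this list, at -0.0046 and 0.14. The list leaves out the members Nfkbia and Tnfaip3, themselves targets of NF-kB. In tuft cells Nfkbia lay lower and Tnfaip3 higher, as given above. The listed targets were not kept out of the clustering, and Ccl20 is also a marker of the microfold class. In Aire-stage mTECs the medians were 0.74 and 1.25, beside -0.15 and -0.14 over all genes counted, with Cxcl13 at 2.13 and 3.40, Ccl19 at 1.52 and 1.47 and Cxcl2 at 1.42 and 1.92, while Ccl20 lay lower at -1.35 and -0.56. The adaptor gene Traf1 stood at 645 and 539.6 CPM in Ccr7 dendritic cells and 26.1 and 12.6 CPM in tuft cells. Among other inhibitors, Tnip3 (-3.84 and -2.95) and Nfkbie (-2.32 and -2.45) were lower in tuft cells, and Cyld was higher (0.84 and 0.90).

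Between the libraries, with all kept cells summed, 12 of 14 target genes were higher in the fl/fl-labelled library, beside 43.6% of all genes counted, and 8 at least 1.5-fold, beside 12.6%, with a median log2 ratio of 0.77, beside -0.051 over all genes counted. Within Aire-stage mTECs 12 of 14 were higher, beside 46.7% of genes, with a median of 0.34. Without cluster 3 the count was 7 of 14, near the 41.1% of genes, with a median of 0.051. Within tuft cells 8 of 10 were higher (median 0.37), beside 52.6% of genes, and within immature mTECs 5 of 11 (median -0.011), near the 52.6% of genes there. Of the receptors 4 of 8 were higher in all kept cells, near the 43.6% of all genes. Beside that same share, of the adaptors and kinases 9 of 13 were higher, of the other inhibitors 10 of 12 and of the ligands 2 of 2. Traf1 stood at 144 and 34.9 CPM in Aire-stage mTECs (2.02), and at 147 and 107 CPM without cluster 3 (0.45). Tnip3 stood at 90.4 and 18.6 CPM in all kept cells (2.22).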

How the data were processed

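Raw UMI counts per gene in each barcode were deposited by the authors. Cell Ranger and Seurat are named per the submitters' processing notes, and the matrix headers carry the version string 3.1.0. The build and annotation used for counting were not given in the sources used here. Depth was 99871505 UMIs over 11095 barcodes in the fl/fl-labelled library and 85260592 over 7304 in the +/fl-labelled library. The members and gene lists were chosen with earlier results of these data known.

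Cells passed with 500 or more genes, 1000 or more UMIs and no more than 15% mitochondrial UMIs. Scrublet, run per library in scanpy 1.11.5, marked 0% of cells in the fl/fl-labelled library and 0.0196% in the +/fl-labelled library, which is below the 0.5% set as the lower bound. Top-scoring cells were removed instead, at 0.8% for every 1000 cells, which took out 539 and 208 cells. Clustering used 2000 variable genes without the members, 30 components, 15 neighbours and Leiden resolution 1, with no integration. A cluster was named from its best list by mean log2 fold where at least 3 markers and 50% of the list were at 10% of its cells and 2-fold, a share set after the clusters were seen.

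UMIs were summed per class and library and divided by the total (CPM) with exact 95% Poisson intervals. Ratios are log2 with 1 CPM added to both sides, and their intervals are exact conditional binomial intervals of the counts. Counts of genes cover those at 10 CPM or more in either group. All intervals cover counting error only, and PCR and capture add to it. Named beside the members are, per pathway list, up to 3 genes with the highest and 3 with the lowest ratio, the receptors Tnfrsf11a, Ltbr and Cd40, and the 3 genes most like each member. The calculation of ratios was tested on simulated data. Promoter windows come from the RefSeq table of GRCm38.p6. TMM factors came from edgeR 4.0.16.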

Additional observations from a re-analysis of the deposited data

Results flagged for a closer look

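The ratio of Tnfaip3 between the libraries differed in sign between 2 classes whose intervals both left out 0. The log2 ratio of the fl/fl-labelled library over the +/fl-labelled library was 0.79 in T-lineage cells and -0.69 in enterocyte-hepatocyte cells. Tnfaip3 stood at 153 and 88.6 CPM in T-lineage cells, and at 44.9 and 73.1 CPM in enterocyte-hepatocyte cells, in the fl/fl-labelled and +/fl-labelled libraries. With 1 library of each genotype the difference was not tested, and the second class holds 51 cells of the +/fl-labelled library.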

How the results depend on the processing

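Of 108 counts of members recomputed under an alternative, 93 stayed within 1.5 times the reported count. With a minimum of 50 CPM, which leaves fewer members to count, those higher in the fl/fl-labelled library were 5 in Aire-stage mTECs, 4 in cycling cells, 5 in immature mTECs, 4 in tuft cells and 5 in all kept cells. With the mean of per-cell CPM the count in leukocytes was 3 and that of tuft cells over other cells 3. With 10 CPM added, tuft cells gave 3 and immature mTECs 1. Immature mTECs gave 0 with TMM factors, 1 against the median of the other classes and 1 at a minimum of 50 CPM, and leukocytes gave 6 with TMM factors. Aire-stage mTECs over other cells, with 5 members past 1.5-fold in either direction as reported, gave 2 with doublets kept and 3 against the median of the other classes. Of 1530 recomputed values of 150 single ratios, 1217 stayed within the counting interval of the reported ratio, 308 moved outside it and 5 turned in sign from a reported ratio of 1.5-fold or more. Another 63 turned in sign from a smaller reported ratio, 16 of all 68 turns with doublets kept, 11 with the mean of per-cell CPM and 9 with TMM factors. Over other cells in Aire-stage mTECs of the +/fl-labelled library, Map3k14 ran from -0.55 to 0.93 and Nfkb1 from -0.68 to 0.88, and Tnfaip3 between libraries in that class was -1.51 with doublets kept. The 5 turns of larger ratios are these. With doublets kept, where cluster 3 took the muscle name and left the class, Nfkb1 between libraries in Aire-stage mTECs was -0.10, and over other cells in the +/fl-labelled library Rel was 0.83, Rela 0.057 and Tnfaip3 0.33. Relb in immature mTECs of the fl/fl-labelled library was 0.21 against the median of the other classes, and the cause was not tested. Shares of cells were higher in the fl/fl-labelled library for 8 members at 1000, 2000 and 4000 UMIs and for 6 without thinning. No paired analysis was possible because each genotype has 1 library.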
